A study of Mus musculus with 6 samples.

Results

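The Hox genes that set positional identity were followed by RNA-seq in mouse vascular smooth muscle cells, over 6 libraries. Every row annotated as protein coding whose symbol was Hox, a cluster letter from a to d and a paralogue number was taken. That gave 40 rows and 39 symbols, since Hoxd4 has 2 identifiers, of the 54532 genes in the table, 22046 of them protein coding. The choice used the symbols and no measured value. In 3 libraries, of wild-type genotype, the cells carried an adenoviral vector with a control plasmid (Ad-Con). In the other 3 libraries they carried one with a pyruvate dehydrogenase kinase 4 overexpression plasmid (Ad-PDK4). The study names the vector as the difference between the groups and gives no other genotype for the Ad-PDK4 cells. The study's methods add that the cells came from mouse abdominal aortas by collagenase digestion, that both groups were then treated with angiotensin II, and that the libraries of a group were biological replicates. The labels mention neither angiotensin II nor separate cultures, so the p-values measure the spread between these libraries.

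Hox proteins are homeodomain transcription factors that tell cells where they lie along the head-to-tail axis of the embryo. Mammals carry them in 4 clusters, each on its own chromosome, in which genes with low paralogue numbers (the 3′ end) act in anterior regions and genes with high numbers (the 5′ end) in posterior ones. Adult mesenchymal cells, vascular smooth muscle cells and fibroblasts among them, keep much of the Hox pattern of the site they came from. Polycomb proteins hold the silent part of a cluster in a repressed state, Trithorax proteins keep the active part on, and proteins of the TALE class (Pbx, Meis and Pknox) bind DNA together with Hox proteins.

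The libraries held 17588942 to 21861872 reads counted to genes. Levels are in FPKM, fragments per kilobase of gene scaled to the mapped fragments of the library. Pdk4 itself had 9.502, 10.4 and 10.1 FPKM in the Ad-Con-labelled libraries and 7.67, 7.40 and 7.38 FPKM in the Ad-PDK4-labelled ones, a log2 fold change of −0.42 ± 0.06 (standard error, SE, adjusted p = 0.00114 by limma with Benjamini-Hochberg adjustment). A gene is called where this adjusted p is below 0.05. This is against the direction of the label, so the groups are named by their labels here and every direction below rests on them. Of the 12 smooth muscle markers, Acta2 had 1086 to 2789 reads and Cald1 12001 to 19970. Cnn1 had 8 to 30 reads, Tagln 4 to 20, Myh11 2 to 10 and Myocd at most 5 in any library. The summed FPKM of that list was 172.8 to 173.3 in the Ad-Con-labelled libraries and 134.8 to 144.9 in the Ad-PDK4-labelled ones. Of its 5 tested members 1 was called higher and 2 lower, where 21.8% of all tested genes were called higher and 20.8% lower. Acta2, smooth muscle actin, fell from 78.0 to 36.2 FPKM in group mean (log2 fold change −1.11, adjusted p = 5.3e-06). Cald1, the higher member, had means of 56.0 and 71.9 FPKM (0.36, adjusted p = 6.6e-04). Mylk, under the filter, had 188, 168 and 122 reads against 27, 28 and 24. When genes of any level were tested with limma, Mylk was lower (−1.93, adjusted p = 0.00197). The 6 fibroblast markers summed to 1291 to 1390 FPKM against 724 to 802 FPKM, and of the 6, all tested, 2 were called higher (Dcn and Pdgfrb) and 3 lower. Among the lower ones Col1a1, a collagen chain, had means of 1056 and 435 FPKM (−1.28, adjusted p = 1.3e-05), and Lum, the proteoglycan lumican, 7.46 and 3.31 FPKM (−1.16, adjusted p = 4.6e-04). The 5 epithelial markers summed to 83.1 to 95.9 against 34.4 to 40.2 FPKM, with Epcam at 0 reads. Their 2 tested members, the keratins Krt18 (−1.29) and Krt19 (−1.265), were both called lower. The 6 endothelial markers summed to 0.617 to 0.798 against 0.885 to 1.18 FPKM, with Tie1 at 0 reads, and the 1 tested, Kdr, was not called. The 6 macrophage markers summed to 13.3 to 16.4 against 3.68 to 5.50 FPKM, with Ptprc, Tyrobp and C1qa at 0 reads. The 1 tested, Cd68, made up most of that sum, with means of 14.2 and 4.24 FPKM, and was called lower (−1.74, adjusted p = 4.4e-04). Csf1r, under the filter, went the other way in value, with 11, 23 and 35 reads against 56, 62 and 61. The part of these marker differences in the results was not tested. In such bulk libraries, fewer cells of a type and less RNA per cell cannot be told apart.

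The Hox transcripts of these cells came mostly from the anterior and middle stretches of Hoxa and Hoxb, with a smaller contribution from Hoxc6. Genes with a mean of at least 0.5 FPKM over the 6 libraries were taken as expressed and tested, and 16 of the 40 rows passed. These included Hoxa2 to Hoxa7, Hoxb2 to Hoxb9 and Hoxc6, and 7 of 11 rows of the Hoxa cluster, 8 of 10 of Hoxb, 1 of 9 of Hoxc and 0 of 10 of Hoxd passed. They held 99.1% of all reads counted to Hox genes. The gap around the threshold was wide: the lowest mean above it was 1.59 FPKM (Hoxb2) and the highest below it 0.217 FPKM (Hoxc9). No gene had passed through one group alone, since both group means of each were over 0.5 FPKM. The clusters lie at chr6:52162417-52260880 (Hoxa2 to Hoxa13), chr11:96194316-96368256 (Hoxb), chr15:102921103-103036852 (Hoxc) and chr2:74668310-74765142 (Hoxd), in the coordinates of the deposited table, which match the annotation of GRCm38. Over the 6 libraries the Hoxa cluster had 15355 reads, Hoxb 21136, Hoxc 776 and Hoxd 8.

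**Figure D1:**
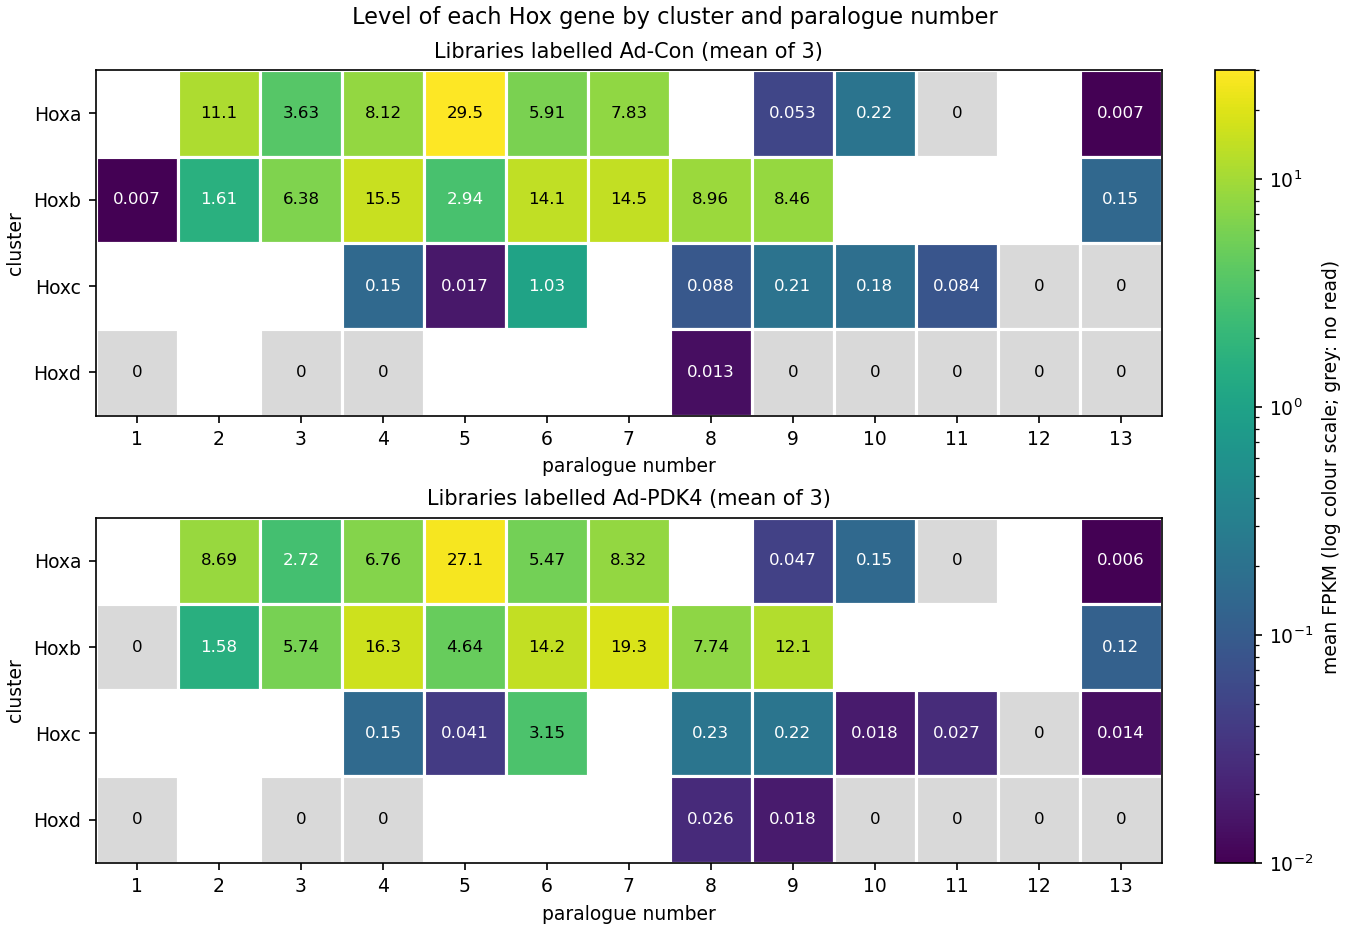
Mean FPKM of each Hox gene (log colour scale, value printed in the cell) by cluster (rows) and paralogue number (columns), for the 3 libraries of each label; grey marks genes with no read in that group and white marks paralogues that the mouse lacks or that are not shown. The bright block covers Hoxa2 to Hoxa7 and Hoxb2 to Hoxb9, and Hoxc6 stands alone in its cluster.

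Hoxa5, which patterns the neck-to-thorax skeleton and the lung, had the highest level. It reached 31.8, 26.7 and 29.8 FPKM in the Ad-Con-labelled libraries and 28.6, 27.4 and 25.2 FPKM in the Ad-PDK4-labelled ones, at the 85.3 percentile of the 13423 tested genes. It ranked 2 among the 232 rows that the authors' annotation places in the homeobox family. Hoxb7, Hoxb4 and Hoxb6 followed with means of 16.9, 15.9 and 14.1 FPKM, and the Ad-Con ranges of these 3 overlapped. Over all 6 libraries Hoxb9 (10.3 FPKM), Hoxa2 (9.87), Hoxb8 (8.35), Hoxa7 (8.07) and Hoxa4 (7.44) came next, then Hoxb3 (6.06 FPKM), Hoxa6 (5.69), Hoxb5 (3.79), Hoxa3 (3.18), Hoxc6 (2.09) and Hoxb2 (1.59). These means pool both labels, and the order differed between them. Hoxa2 (11.1 FPKM) and Hoxb8 (8.96) had higher means than Hoxb9 (8.46) in the Ad-Con-labelled libraries, while Hoxb9 (12.1) was above Hoxa2 (8.69) and Hoxb8 (7.74) in the Ad-PDK4-labelled ones. Likewise Hoxc6 was below Hoxb2 under the former label (1.03 and 1.61 FPKM) and above it under the latter (3.15 and 1.58 FPKM). Levels did not run smoothly along a cluster: in Hoxb the low gene Hoxb5 sat between Hoxb4 and Hoxb6. Hox genes held 16 of the 61 homeobox rows with a mean of at least 0.5 FPKM and 4 of the 10 highest. Their share of the summed homeobox FPKM was 32.0% to 35.4% in the Ad-Con-labelled libraries and 32.6% to 33.4% in the Ad-PDK4-labelled ones, which lies within the former range.

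At the posterior ends the level dropped between neighbouring genes. Hoxa7 had 8.07 FPKM and the next gene, Hoxa9, 0.05003 FPKM, a step of 161-fold, or 103- to 285-fold in single libraries. Hoxa9 was covered by 9, 5 and 3 reads in the Ad-Con-labelled libraries and 7, 3 and 5 in the Ad-PDK4-labelled ones. From Hoxb9 to Hoxb13, the next gene of its cluster, the step was 78.9-fold (51.1- to 317-fold in single libraries). Hoxc6 had 13.3-fold more FPKM than Hoxc8 (6.76- to 24.5-fold over the libraries in which Hoxc8 had reads) and 13.8-fold more than Hoxc4 (4.09- to 38.9-fold), and these means include the difference of Hoxc6 between the labels. Paralogue numbers 10 to 13, which pattern the lumbosacral region, tail and distal limb, had 12 rows and none passed the filter. Together they had 139 reads in the 6 libraries, and the most for any gene in 1 library was 19, for Hoxa10. In Hoxd, Hoxd8 had 6 reads and Hoxd9 had 2 over all libraries, and the other 8 rows had none. A count of 0 allows up to 3 reads in a library, which for the 10 Hox rows with no read anywhere is a level of at most 0.0407 to 0.166 FPKM, counting error only. Of the exonic bases of Hoxd3, 62.3% lie in exons of other genes on the same strand, Hoxd4 among them. For the Hoxd4 identifier with exons in the annotation used, this share was 52.3%, and the span of the other identifier overlaps it. How reads in such shared stretches were assigned is not given in the sources used here. The limits above, which cover counting error only, therefore need not hold for Hoxd3 and Hoxd4.

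The promoters on both sides of the Hoxa step are shown because the data differ most there, with Hoxa5 as the highest gene and Hoxd4 as a gene without a counted read for comparison. Each line gives the 250 bases before the start of the RefSeq transcript (GRCm38.p6, in the direction of transcription), and capitals mark the dinucleotide CG. Hoxa5 lies at chr6:52204588-52204837 on the minus strand, Hoxa7 at chr6:52218574-52218823 on the minus strand, Hoxa9 at chr6:52227371-52227620 on the minus strand and Hoxd4 at chr2:74721728-74721977 on the plus strand.
Hoxa5: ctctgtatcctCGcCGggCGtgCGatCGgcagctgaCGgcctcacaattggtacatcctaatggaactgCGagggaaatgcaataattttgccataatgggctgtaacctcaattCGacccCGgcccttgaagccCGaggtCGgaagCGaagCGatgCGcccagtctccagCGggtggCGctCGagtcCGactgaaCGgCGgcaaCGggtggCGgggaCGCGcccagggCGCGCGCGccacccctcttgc
Hoxa7: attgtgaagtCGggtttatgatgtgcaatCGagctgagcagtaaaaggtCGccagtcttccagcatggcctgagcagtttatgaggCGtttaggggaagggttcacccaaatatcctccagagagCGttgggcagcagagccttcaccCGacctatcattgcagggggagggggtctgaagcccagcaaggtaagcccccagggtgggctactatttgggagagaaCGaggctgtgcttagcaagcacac
Hoxa9: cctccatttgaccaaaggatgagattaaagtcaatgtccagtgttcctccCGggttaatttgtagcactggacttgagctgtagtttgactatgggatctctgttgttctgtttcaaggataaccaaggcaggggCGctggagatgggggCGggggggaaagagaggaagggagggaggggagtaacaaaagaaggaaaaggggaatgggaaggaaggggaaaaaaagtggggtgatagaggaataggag
Hoxd4: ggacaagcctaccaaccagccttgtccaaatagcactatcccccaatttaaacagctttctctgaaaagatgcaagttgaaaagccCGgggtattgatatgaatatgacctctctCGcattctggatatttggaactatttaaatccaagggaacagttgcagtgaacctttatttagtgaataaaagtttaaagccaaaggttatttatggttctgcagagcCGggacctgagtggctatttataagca
These stretches hold 28 CG dinucleotides for Hoxa5, 7 for Hoxa7, 3 for Hoxa9 and 3 for Hoxd4. Over windows of 300 bases (250 before and 50 after the start), 22 Hox genes had 24 windows. The 7 windows of tested genes held a median of 14 CG (9 to 29) and the 17 of other Hox genes a median of 15 (4 to 45), against 7 for all 32851 windows. The windows cover 7 of the 16 tested members, and the ranges of both sets overlapped. The Hox-Pbx motif TGATNNAT, searched on both strands, occurred in 2 of the 7 windows (Hoxa2 and Hoxb8), in 2 of the 17 (Hoxb1 and Hoxd11) and in 8.85% of all windows. The homeodomain core TAATTA, also read on both strands and counted independently of the first, occurred in 0 of 7, in 2 of 17 (both of Hoxd11) and in 5.29% of all windows.

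Between the labels, Hoxc6, Hoxb9, Hoxb7 and Hoxb5 were higher in the libraries labelled Ad-PDK4, and Hoxa2, Hoxa3 and Hoxa4 were lower. The other 9 tested members did not pass. The test was limma on log2(FPKM + 0.1) with Benjamini-Hochberg adjustment over all 13423 genes and a threshold of 0.05 on the adjusted p. These 4 higher calls among 16 stand against 21.8% of all tested genes called higher, and the 3 lower calls against 20.8% called lower, so the shares are near those of the table as a whole. With a fold change of at least 2 as well, 1 member was higher (Hoxc6), against 3.95% of all tested genes, and 0 were lower, against 2.68%. In 8 of 16 members the 3 values of one label lay wholly above those of the other, 4 in each direction, while 54.3% of all tested genes showed such a separation. The median log2 fold change was −0.0024 over the 16 members and −0.0031 over all tested genes, and the median size regardless of sign was 0.18 against 0.25. The median change of the Hox genes was thus no larger than that of the table. The lower calls were all in Hoxa and the higher calls in Hoxb and Hoxc, as the plot of differences along the clusters shows.

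**Figure D2:**
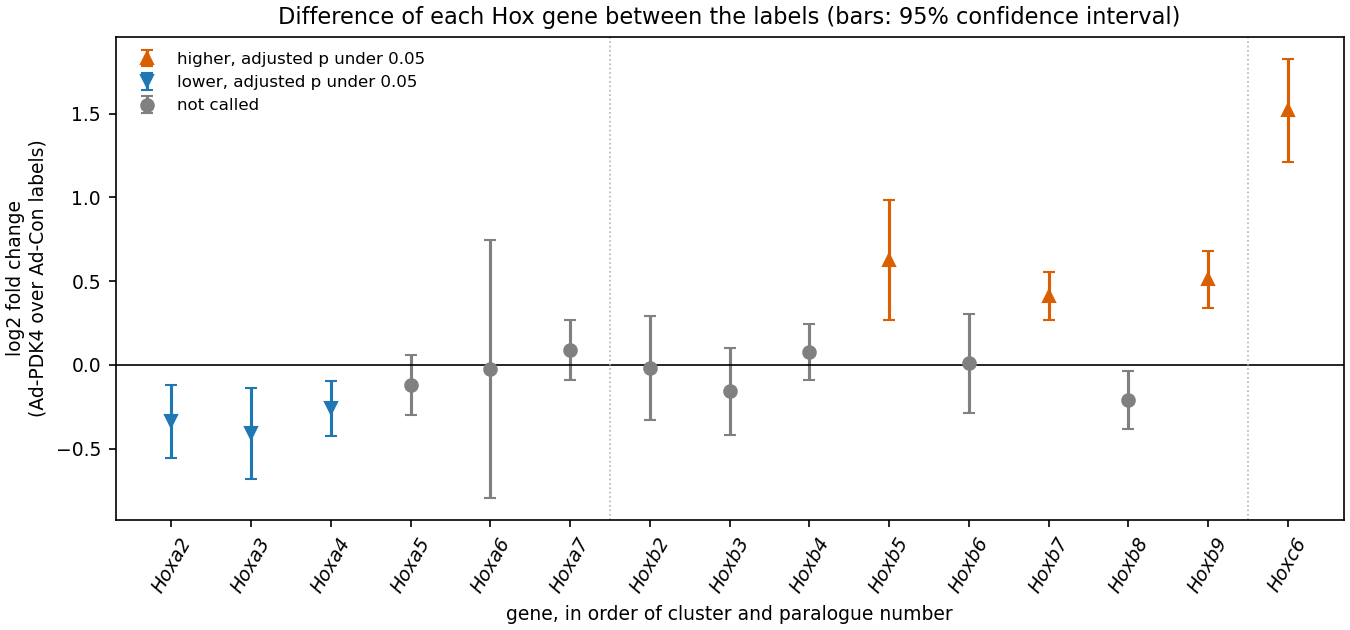
Log2 fold change (libraries labelled Ad-PDK4 over Ad-Con, on the log2(FPKM + 0.1) scale) of 15 tested Hox genes in order of cluster and paralogue number; bars are 95% confidence intervals, n = 3 per label, and dotted lines part the clusters. The 3 lower calls are neighbours in Hoxa, 3 of the 4 higher calls are in Hoxb, and Hoxc6 has the largest value, 1.52.

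Hoxc6, which helps to specify thoracic identity, showed the largest difference of the family. It had 1.12, 1.09 and 0.893 FPKM in the Ad-Con-labelled libraries and 2.85, 3.46 and 3.12 FPKM in the Ad-PDK4-labelled ones. The reads behind these values were 55, 46 and 39 against 125, 146 and 166. All 3 libraries labelled Ad-PDK4 lay above all 3 of the other label. The log2 fold change was 1.52 ± 0.13 (SE, adjusted p = 8.1e-05), a ratio of means of 3.04. Hoxc6 at chr15:102998257-103011881 shares no exonic base with another gene of the annotation. Its log2 fold change ran from 1.03 to 1.62 over the 15 alternatives in which it was tested, and it passed in each.

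In Hoxb the called genes were 5′ members and Hoxb5, interleaved with neighbours that did not pass. Hoxb9, a thoracic patterning gene and the most posterior one expressed here, had 9.03, 7.92 and 8.44 FPKM in the Ad-Con-labelled libraries and 11.5, 11.8 and 12.998 FPKM in the Ad-PDK4-labelled ones. The groups were apart, with a log2 fold change of 0.51 ± 0.07 (SE, adjusted p = 0.0011). Hoxb7 had 15.2, 14.1 and 14.2 FPKM against 18.9, 18.5 and 20.6 FPKM, again without overlap (0.41 ± 0.06, adjusted p = 0.00135). Hoxb5, which acts in gut innervation and the upper trunk, had 3.28, 2.74 and 2.79 FPKM against 4.64, 5.62 and 3.66 FPKM. Its 3 libraries labelled Ad-PDK4 were all higher but spread more (0.62 ± 0.15, adjusted p = 0.0134). The counts do not carry a stated strand setting, and 3.59% of the exonic bases of Hoxb5 lie opposite those of its antisense transcript Hoxb5os, described further on.

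Between these genes, Hoxb8 went the other way in value. It had 8.91, 8.41 and 9.57 FPKM in the Ad-Con-labelled libraries and 7.22, 8.22 and 7.78 FPKM in the Ad-PDK4-labelled ones, groups that did not overlap, but the log2 fold change of −0.21 ± 0.08 did not pass (adjusted p = 0.0572). Hoxb6 had means of 14.1 ± 1.89 and 14.2 ± 1.87 FPKM (SD, n = 3 each), with a 95% confidence interval of the log2 difference from −0.28 to 0.31. Hoxb4, a gene also known from blood stem cells, had means of 15.5 ± 1.30 and 16.3 ± 0.58 FPKM (interval −0.09 to 0.24). Hoxb3 had means of 6.38 ± 0.44 and 5.74 ± 0.87 FPKM (interval −0.42 to 0.10), and 52.9% of its exonic bases lie opposite exons of Hoxb3os. Hoxb2 had means of 1.61 ± 0.19 and 1.58 ± 0.11 FPKM (interval −0.33 to 0.29), and 27.3% of its exonic bases also lie opposite exons of Hoxb3os.

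The unequal moves of neighbours changed the ratios within each library, which do not depend on how libraries are scaled to each other. The ratio of Hoxb9 to Hoxb8 was 1.01, 0.942 and 0.883 in the Ad-Con-labelled libraries and 1.59, 1.44 and 1.67 in the Ad-PDK4-labelled ones. That of Hoxb8 to Hoxb7 was 0.586, 0.595 and 0.673 against 0.382, 0.444 and 0.377. Hoxb9 was thus level with Hoxb8 under one label and above it in every library of the other. The ratio of Hoxb5 to Hoxb4 was 0.189 ± 0.0155 against 0.285 ± 0.0642, and that of Hoxb6 to Hoxb5 4.81 ± 0.597 against 3.10 ± 0.254 (SD, n = 3 each). Of 13 neighbouring pairs of tested genes, these 4, all in Hoxb, had groups that did not overlap, 2 upward and 2 downward. Such a separation was seen in 61.5% of 11452 pairs of neighbouring tested protein-coding genes over the whole table, so it was no more frequent among the Hox pairs. With 3 libraries against 3, an exact permutation test of a single ratio cannot give a two-sided p below 0.1.

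In Hoxa the called genes were 3 neighbours near the 3′ end. Hoxa2, a pharyngeal arch and hindbrain gene, had 11.5, 9.47 and 12.2 FPKM in the Ad-Con-labelled libraries and 8.67, 8.60 and 8.80 FPKM in the Ad-PDK4-labelled ones (log2 fold change −0.34 ± 0.09 SE, adjusted p = 0.022). Hoxa3, which acts in the thymus, parathyroid and arch arteries, had 3.77, 3.77 and 3.35 FPKM against 2.83, 3.02 and 2.32 FPKM (−0.41 ± 0.12, adjusted p = 0.0241). Hoxa4 had 8.01, 7.72 and 8.62 FPKM against 7.17, 6.70 and 6.42 FPKM (−0.26 ± 0.07, adjusted p = 0.0214). In each of these 3 genes every library labelled Ad-PDK4 was below every library labelled Ad-Con. The count of lower members was the least stable of these results. It was 0 without Ad-Con replicate 1, 1 without replicate 3 of either label, 2 without Ad-Con replicate 2 or Ad-PDK4 replicate 1, and 4 when Ad-PDK4 replicate 2 was left out. It was 1 when genes of any level were tested, while the 3 genes kept negative values throughout.

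The other expressed genes of Hoxa did not pass. Hoxa5 had means of 29.5 ± 2.56 and 27.05 ± 1.73 FPKM (SD, n = 3 each), with a 95% confidence interval of the log2 difference from −0.30 to 0.06. Hoxa7, the last expressed gene before the step, had means of 7.83 ± 0.62 and 8.32 ± 0.38 FPKM (interval −0.09 to 0.27). Hoxa6 was the most variable member, at 8.26, 6.06 and 3.41 FPKM in the Ad-Con-labelled libraries, a coefficient of variation of 41.1%, against 5.41, 5.82 and 5.18 FPKM. Its interval of −0.79 to 0.75 does not exclude a change of over 1.5-fold in either direction. Antisense exons cover 25.4% of the exonic bases of Hoxa3, 20.4% of Hoxa7 and 16.0% of Hoxa4, so without strand these genes and their antisense partners cannot be told apart over those bases. Exons of the predicted gene Gm28308 on the same strand, which had 0 reads, cover 15.04% of those of Hoxa2.

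**Figure D3:**
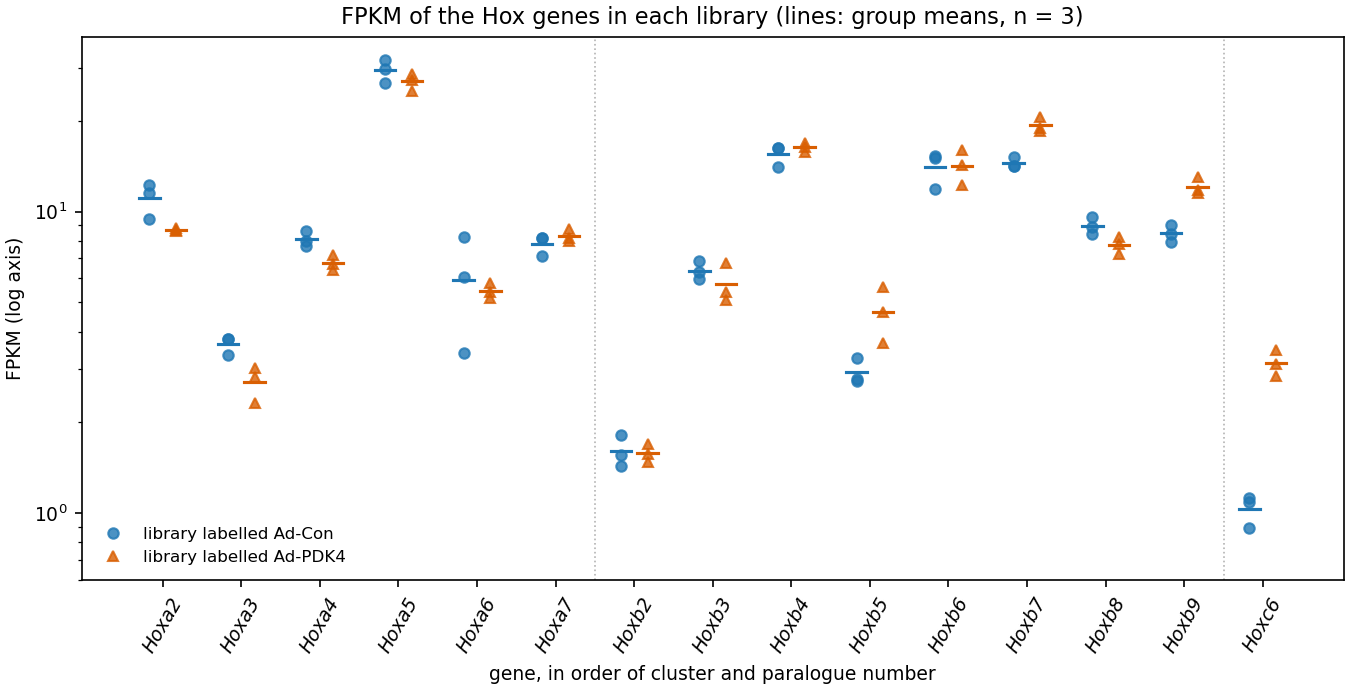
FPKM (log axis) of 15 tested Hox genes in each library, circles for the 3 libraries labelled Ad-Con and triangles for the 3 labelled Ad-PDK4, with lines at the group means. Hoxc6, Hoxb9, Hoxb7 and Hoxb5 have triangles above all circles, Hoxa2, Hoxa3, Hoxa4 and Hoxb8 have them below, and Hoxa6 spreads most among the circles.

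Summed over the family, the totals of the 2 labels overlapped, while sums over clusters and paralogue numbers differed in both directions. All Hox rows together had 142.6 ± 10.6 FPKM in the Ad-Con-labelled libraries and 146.9 ± 4.38 FPKM in the Ad-PDK4-labelled ones (SD, n = 3 each), with overlapping ranges. Hoxa summed to 68.2 ± 6.08 against 61.2 ± 2.56 FPKM, ranges that overlapped. Hoxb summed to 72.6 ± 4.96 against 81.8 ± 2.82 FPKM, and its highest library labelled Ad-Con, 76.4, was below the lowest of the other label, 79.4. Hoxc, mostly Hoxc6, summed to 1.77 ± 0.33 against 3.85 ± 0.17 FPKM, also apart. By number, paralogues 1 to 3 summed to 26.4, 22.4 and 25.1 FPKM against 20.05, 22.1 and 20.01 FPKM, a ratio of 0.842 with the groups just apart. Paralogues 4 to 8 summed to 108.7 ± 8.04 against 113.5 ± 3.77 FPKM (ratio 1.04). Paralogues 9 to 13 summed to 9.91, 8.90 and 9.29 FPKM against 12.3, 12.4 and 13.4 FPKM (ratio 1.36), nearly all of it Hoxb9. These sums are given as descriptions without a test, since single genes carry most of each.

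**Figure D4:**
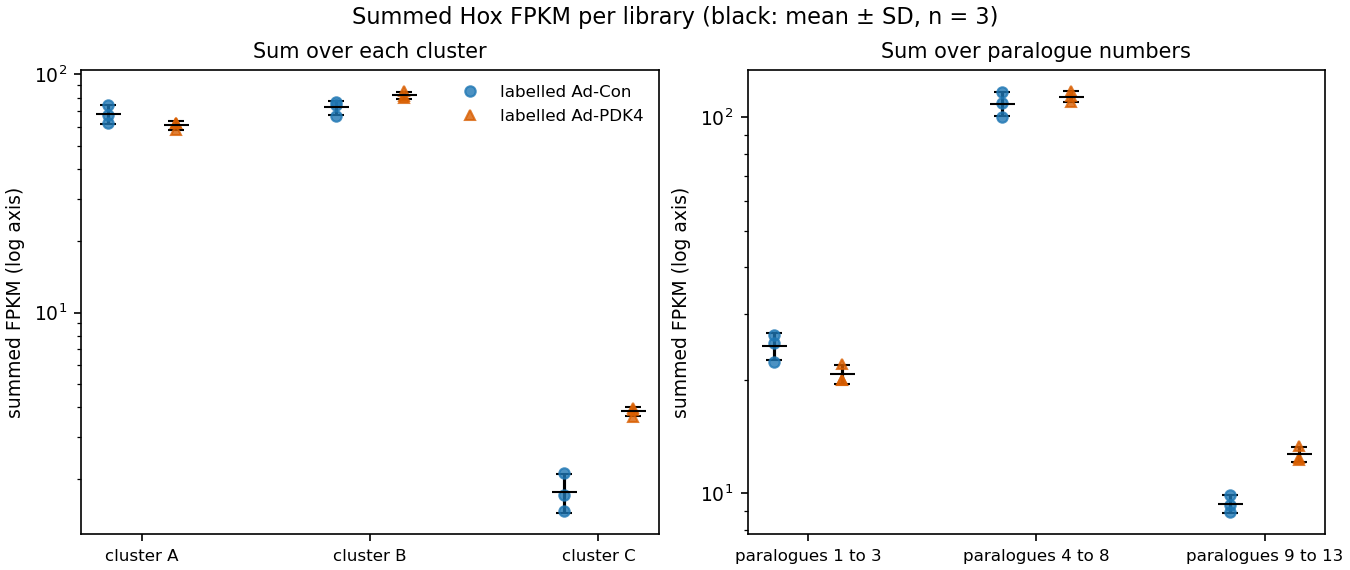
Summed FPKM per library (log axis) over the Hoxa, Hoxb and Hoxc clusters (left) and over paralogue numbers (right), circles for libraries labelled Ad-Con and triangles for Ad-PDK4, black marks the mean ± SD (n = 3). The circles and triangles overlap for cluster A and for paralogues 4 to 8 and are apart for the other 4 sums.

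Below the filter, 9 members had more than 3 reads in some library and were read as counts. Hoxc10, a lumbar and hindlimb gene, had 10, 2 and 8 reads in the Ad-Con-labelled libraries and 0, 1 and 1 in the Ad-PDK4-labelled ones. The total of 20 against 2 reads is a depth-corrected ratio of 10.3 with an exact 95% interval of 2.50 to 91.0, which covers counting error only. When genes of any level were tested, its log2 fold change of −1.19 did not pass (adjusted p = 0.0849). Exons of Hoxc5 on the same strand cover 8.70% of its bases. Hoxc8 had 6, 8 and 0 reads against 17, 7 and 13, a ratio of 2.56 in the other direction (interval 1.35 to 5.13) with overlapping groups and no call (adjusted p = 0.256). Hoxa10 had 19, 10 and 12 reads against 10, 7 and 11, and Hoxc9 4, 16 and 8 against 14, 10 and 6. The others, Hoxa9, Hoxb13, Hoxc4, Hoxc5 and Hoxc11, had at most 12 reads in any library, and their levels at this depth allow no comparison. A further 5 members (Hoxa13, Hoxb1, Hoxc13, Hoxd8 and Hoxd9) had at most 2 reads in any library.

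The Hox clusters also hold microRNA genes, whose mature products are known to bind Hox messages. Mir10a lies in Hoxb between Hoxb4 and Hoxb5, Mir10b in Hoxd, Mir196b in Hoxa within the span of the Hoxa9 row, and 2 loci in Hoxb and Hoxc give the same miR-196a. Their RefSeq mature sequences (GRCm38.p6) are shown with the seed, bases 2 to 8, in capitals, because the seed fixes which Hox messages carry a matching site.
miR-10a-5p: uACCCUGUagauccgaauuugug
miR-10b-5p: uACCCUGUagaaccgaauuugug
miR-196a-5p: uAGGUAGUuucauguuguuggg
miR-196b-5p: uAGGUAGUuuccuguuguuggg
The first pair shares the seed ACCCUGU and the second pair AGGUAGU. Mature microRNAs are too short for these libraries and were not measured. The row of the Mir196a-1 hairpin had 17, 12 and 19 reads in the Ad-Con-labelled libraries and 16, 11 and 28 in the Ad-PDK4-labelled ones, and that of Mir10a had 6, 4 and 9 against 2, 0 and 10. Neither passed, and reads over a hairpin can come from longer transcripts. Mir196b had 0 reads.

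A 7-base match to the miR-196 seed was present in the 3′ UTR of 8 of 39 Hox genes (20.51%), against 5.25% of 21699 coding genes of the GENCODE M21 annotation, taking the transcript with the longest coding sequence. Per kilobase of 3′ UTR this was 0.328 sites against 0.0460. Among tested members the matches were in Hoxa4, Hoxa5, Hoxa7 (4 sites), Hoxb6 and Hoxb7. Hoxb8 had no 7-base match but held a stretch equal to the complement of miR-196a-5p at 21 of 22 bases. The next best of the family, in Hoxd8, matched at 15. A match to the miR-10 seed was found in members that included Hoxa3, Hoxb3 and Hoxd1, 10.3% of Hox genes against 10.6% of all. The sites below (GRCm38, 5′ to 3′ in the message) show the range, with capitals at the bases that match the complement of the whole microRNA for Hoxb8 and of the seed for the others.
Hoxb8, miR-196a, chr11:96284888-96284909, plus strand: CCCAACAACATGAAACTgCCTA
Hoxb7, miR-196, chr11:96289784-96289805, plus strand: ctgtaaaaaaatatACTACCTa
Hoxa7, miR-196, chr6:52215210-52215231, minus strand: actactagccctaaACTACCTa
Hoxa5, miR-196, chr6:52202118-52202139, minus strand: atatttttattcaaACTACCTa
Hoxa3, miR-10, chr6:52169653-52169675, minus strand: actctttgataagaaACAGGGTa
Hoxb3, miR-10, chr11:96347287-96347309, plus strand: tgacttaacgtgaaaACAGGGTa
The genes with a miR-196 seed match did not move one way: Hoxb7 was called higher, Hoxa4 lower, and Hoxa5, Hoxa7 and Hoxb6 were not called. Of the miR-10 matches, Hoxa3 was called lower and Hoxb3 was not called.

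The clusters also hold other rows of the table, most of them noncoding. Of 20 such rows within Hoxa, 7 passed the filter and 12 had no read, and of 9 within Hoxb, 7 passed and 1 had no read. Within Hoxc, 6 of 7 and within Hoxd all 10 of 10 had no read. Hoxb5os, antisense to Hoxb5, had 2.19, 2.29 and 2.14 FPKM in the Ad-Con-labelled libraries and 4.11, 2.79 and 3.84 FPKM in the Ad-PDK4-labelled ones. It was called higher (log2 fold change 0.66 ± 0.14 SE, adjusted p = 0.00805), as was Hoxb5. Hoxaas2, a noncoding transcript between Hoxa2 and Hoxa3 that overlaps exons of Hoxa3, had 2.66, 2.49 and 3.18 FPKM against 1.44, 1.87 and 2.24 FPKM and was called lower (−0.58 ± 0.17, adjusted p = 0.0273), as were both neighbours. That call was lost when genes of any level were tested (adjusted p = 0.0625) and without Ad-Con replicate 1 or 3 or Ad-PDK4 replicate 1 or 2. The call of Hoxb5os was lost with limma-voom on recovered reads (adjusted p = 0.0585). Hotairm1, a noncoding transcript of the Hoxa cluster, had 2.35, 2.61 and 1.78 FPKM against 3.54, 2.45 and 3.40 FPKM, with overlapping groups, and did not pass. The remaining rows at or above 0.5 FPKM, Gm27861, Gm27477, Gm15050, Hoxaas3 and 5730596B20Rik in Hoxa and Gm11539, Gm53, Gm11536, Hoxb3os, Mir196a-1 and Mir10a in Hoxb, did not pass either. Of the 17 noncoding transcripts chosen by name, 16 were found, 9 of them with at most 3 reads in any library.

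The nearest protein-coding genes outside the clusters were read for comparison. Beyond the 3′ end of Hoxa, Skap2 had 9.66, 10.4 and 10.2 FPKM in the Ad-Con-labelled libraries and 7.90, 7.9996 and 9.06 FPKM in the Ad-PDK4-labelled ones (log2 fold change −0.28 ± 0.07 SE, adjusted p = 0.0166), a call that was lost without Ad-Con replicate 2 or 3 or Ad-PDK4 replicate 1. Beyond the 5′ end Evx1 had 0 reads. On one side of Hoxc, Calcoco1, 198925 bases away, fell from 66.1 ± 1.61 to 49.1 ± 4.24 FPKM (SD, n = 3 each, log2 fold change −0.43, adjusted p = 0.00146), while Hoxc6 rose. Smug1, 116438 bases away on the other side, was not called (2.80 ± 0.22 and 3.23 ± 0.22 FPKM). Beside Hoxb, Ttll6 and Skap1 were under the filter. Beside the Hoxd cluster, Mtx2, 60661 bases away, was expressed at 11.0 ± 0.94 and 11.6 ± 0.57 FPKM (not called), and Evx2 had 0 reads.

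Genes that act with or upstream of Hox genes were read from the same fit. Of the 9 TALE cofactors, which bind DNA with Hox proteins, all passed the filter, 2 were called higher and 1 lower, with a median log2 fold change of −0.06. For this list and those that follow, the values to set beside are the 21.8% of all tested genes called higher, the 20.8% called lower and their median of −0.0031. Pknox2 had means of 2.05 ± 0.12 and 2.79 ± 0.33 FPKM (0.42 ± 0.12 SE, adjusted p = 0.02). Pbx3 had 3.24 ± 0.15 and 2.50 ± 0.12 FPKM (−0.37 ± 0.09, adjusted p = 0.0121). The call of Pknox2 was lost without Ad-Con replicate 1 or 3 or Ad-PDK4 replicate 2 or 3, and that of Pbx3 without Ad-Con replicate 1.

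In the Polycomb group, genes for subunits of the silencing complexes differed in both directions. All 23 members passed the filter, 4 were called higher and 4 lower, none by 2-fold, and the median was −0.03. Ezh2, the H3K27 methyltransferase, had 3.95, 3.31 and 4.47 FPKM in the Ad-Con-labelled libraries and 2.11, 2.07 and 2.02 FPKM in the Ad-PDK4-labelled ones (−0.88 ± 0.12 SE, adjusted p = 7.7e-04). Cbx2, a chromobox subunit that reads this mark, had 4.18, 4.04 and 3.73 FPKM against 2.10, 2.21 and 2.20 FPKM (−0.84 ± 0.09, adjusted p = 1.8e-04). Jarid2, which recruits the methyltransferase complex, had 1.42, 1.51 and 1.45 FPKM against 0.843, 0.847 and 0.834 FPKM (−0.73 ± 0.14, adjusted p = 0.00417). In all 3 genes the groups were well apart, and the calls were kept in each of the 15 alternatives in which they were tested.

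Of the 18 Trithorax proteins, H3K27 demethylases and insulator proteins, 5 were called higher and 4 lower, with a median of −0.01. Kdm6b, a demethylase of the Polycomb mark, had 12.3, 12.7 and 11.99 FPKM in the Ad-Con-labelled libraries and 8.31, 9.87 and 8.20 FPKM in the Ad-PDK4-labelled ones (−0.49 ± 0.08 SE, adjusted p = 0.00209). Dpy30, a shared subunit of the H3K4 methyltransferases, had means of 18.8 ± 1.73 and 14.2 ± 0.48 FPKM (−0.39 ± 0.07, adjusted p = 0.00373). Kmt2b, one of those methyltransferases, had means of 6.43 ± 0.57 and 8.13 ± 0.78 FPKM (0.33 ± 0.09, adjusted p = 0.0234). Its call was lost when genes of any level were tested (adjusted p = 0.053) and without Ad-Con replicate 2 or 3 or Ad-PDK4 replicate 1 or 2.

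Of 14 embryonic inputs to Hox clusters, 10 had no read, among them the caudal genes Cdx1, Cdx2 and Cdx4. The 4 that were expressed included 2 retinoic acid receptors called higher and none was called lower. Rarb had 2.26, 2.03 and 1.64 FPKM in the Ad-Con-labelled libraries and 2.56, 2.94 and 2.51 FPKM in the Ad-PDK4-labelled ones (0.42 ± 0.14 SE, adjusted p = 0.0385), and Rarg had means of 36.5 ± 0.26 and 44.9 ± 3.04 FPKM (0.30 ± 0.06, adjusted p = 0.0047). The call of Rarb was lost when genes of any level were tested (adjusted p = 0.0801) and without any 1 library other than Ad-Con replicate 1. Of 38 positional factors outside the Hox clusters, 21 passed the filter, 6 were called higher and 5 lower, with a median of 0.17, and 8 had at most 3 reads in any library. The list summed to 140.1 to 148.1 FPKM in the Ad-Con-labelled libraries and 172.2 to 175.7 FPKM in the Ad-PDK4-labelled ones. Among the 6 higher calls, all under 2-fold, Foxf1 had means of 5.97 and 10.4 FPKM (0.81, adjusted p = 6.8e-04). Osr1 had means of 21.6 and 36.7 FPKM (0.77, adjusted p = 6.4e-05). The 1 change of at least 2-fold was in Osr2, an odd-skipped factor of limb and palate, with 0.895, 0.676 and 0.990 FPKM against 0.546, 0.331 and 0.275 FPKM (−1.003 ± 0.31, adjusted p = 0.0319). Its group means were 0.854 and 0.384 FPKM, so it passed the filter of 0.5 FPKM only through the Ad-Con-labelled libraries, where it was higher. Its call was lost with the replicate number as a block (adjusted p = 0.0547) and without Ad-Con replicate 1 or 3 or Ad-PDK4 replicate 2 or 3, and with a pseudocount of 1 the log2 fold change of Osr2 was −0.42, under 2-fold.

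**Figure D5:**
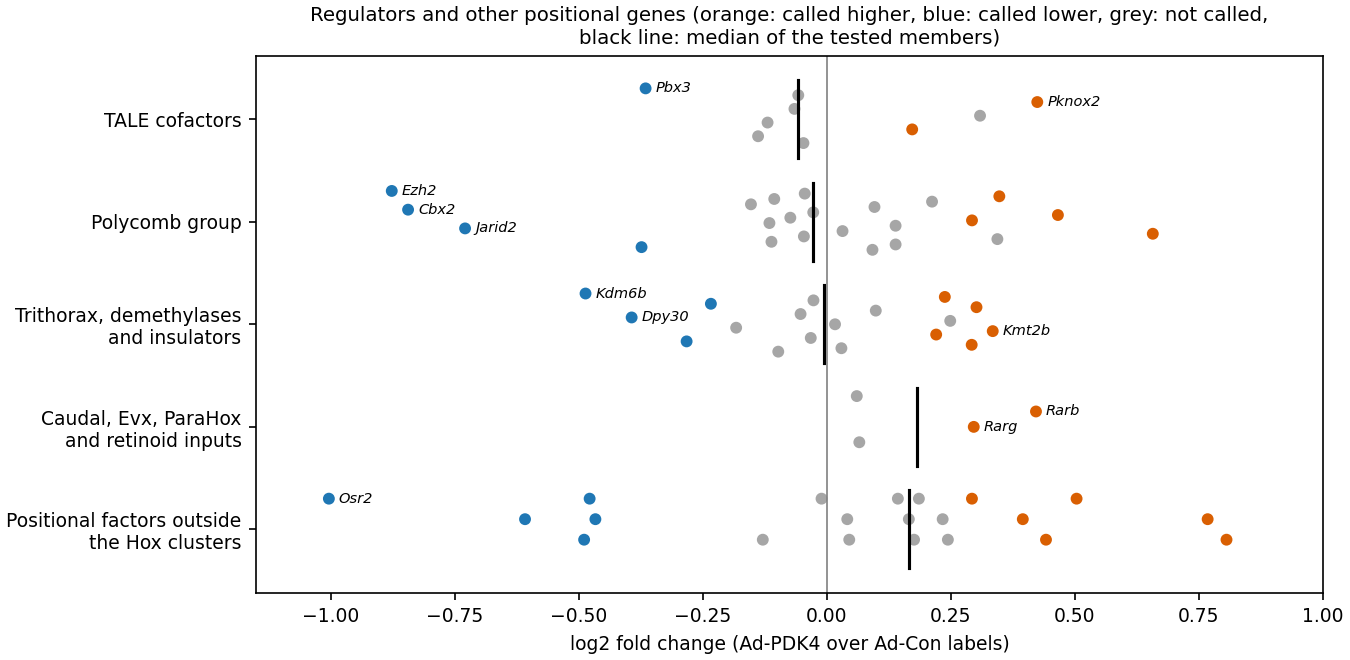
Log2 fold change (libraries labelled Ad-PDK4 over Ad-Con) of the tested members of 5 lists of Hox cofactors, chromatin regulators, embryonic inputs and other positional factors; each point is a gene, orange was called higher, blue lower and grey not called, the black line is the list's median, and height within a row has no meaning. Ezh2, Cbx2 and Jarid2 lie farthest to the left among the Polycomb group. Osr2 reaches −1.003, with a mean under 0.5 FPKM in the Ad-PDK4-labelled libraries.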

How the data were processed

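RNA was sequenced from 6 libraries, 3 labelled Ad-Con and 3 labelled Ad-PDK4. Per the labels, reads were processed with CASAVA 1.8, fastp, HISAT2 2.0.5, featureCounts 1.5.0-p3 and DESeq2 1.20.0. The authors deposited FPKM per gene, and no raw counts were used here. The labels name build GRCm39, but 98.3% of the 54495 identifiers shared with GENCODE M21 have its GRCm38 coordinates, as do 38 of the 40 Hox rows, so GRCm38 was used. The labels name a SMARTER kit and the study's methods a NEBNext kit, and the strand setting is not given in the sources used here. FPKM times gene length was a whole multiple of 1 step per library for 100% of values (tolerance 0.01 reads), which gave reads. Values were tested with limma 3.58.1 (R 4.3.3, trend and robust moderation) on log2(FPKM + 0.1), which understates changes of low genes, over 13423 genes with a mean of at least 0.5 FPKM. The fit was run on simulated counts as a check of the code. That simulation had far fewer changed genes than were called here, and larger changes than most Hox calls. It therefore does not measure how well the fit finds small changes in these data. Intervals are 95% and cover counting error only where they rest on reads.

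The Hox members were taken by their symbols; values of 1 of them and of 1 gene of another list are not reported here, though the counts and sums include them. From the other lists, called members of at least 2-fold were named, else up to 3 with the largest change. A few other members were also named. The members and lists were chosen with earlier results of these data known. The neighbouring protein-coding gene on each side of a cluster and its inner rows with a mean of at least 0.5 FPKM were also taken.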

Additional observations from a re-analysis of the deposited data

How the results depend on the processing

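The 4 higher Hox calls were kept in each of the alternatives run in which the genes were tested, with log2 fold changes of 1.03 to 1.62 for Hoxc6, 0.48 to 0.78 for Hoxb5, 0.36 to 0.45 for Hoxb7 and 0.45 to 0.56 for Hoxb9. A mean of at least 5 FPKM removes Hoxb5 and Hoxc6 by construction and left 2 higher, 0 of them by 2-fold; over all genes it left 258 higher and 114 lower by 2-fold, and a pseudocount of 1 left 153 lower by 2-fold. The lower Hox calls numbered 1 without a filter and 0 to 4 when 1 library was left out. Hoxa2 lost its call in 5 alternatives, Hoxa3 and Hoxa4 in 4 each. Hoxb8 passed in 3 (at least 5 FPKM, quantile normalization, without Ad-PDK4 replicate 2) and Hoxb3 in 1 (without Ad-PDK4 replicate 2). Members near 0 changed sign: with 1 library left out, Hoxa6 ran from −0.37 to 0.26, Hoxb2 from −0.088 to 0.0721 and Hoxb6 from −0.10 to 0.11; rescaled to TPM, Hoxa6 was 0.0182 and Hoxb2 0.0242; Hoxb6 was −0.0504 after quantile normalization and −0.0057 with limma-voom on recovered reads. Where no value above shows a cause, the cause was not tested. Over the alternatives the higher and lower calls ran from 0 to 2 and 0 to 2 for the TALE cofactors, 4 to 7 and 1 to 4 for the Polycomb group, 1 to 6 and 2 to 5 for the Trithorax list and 6 to 6 and 1 to 5 for the positional factors. Same-numbered libraries did not deviate together (correlations −0.046, −0.0311 and −0.0013). This shows no pairing by number but cannot exclude it, since deviations from a mean of 3 libraries also hold counting error. With the replicate block, 4 Hox genes were higher and 3 lower, and 2759 and 2626 of all genes. Scaling moved the median of all genes by under 0.05. Depth limits the 24 Hox rows under the filter, which had 343 reads in all.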
